A study of Mus musculus with 7 samples.

Results

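The mutated unswitched B cells of mouse lymph nodes are described here from their B cell receptor sequences. They were selected on measured values, as cell barcodes with exactly 1 productive heavy chain, an IgM or IgD constant region call, and a heavy chain V segment at most 0.99 identical to its germline gene. In 6 libraries of a known node and genotype, 89 of 16615 unswitched cells met this rule. They were set against the 15964 unswitched cells with a V identity of 1. The other 562 unswitched cells lay between these limits, and 563 cells carried switched constant regions.

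Somatic hypermutation is started by the enzyme AID, which deaminates cytosines in rearranged V genes and prefers certain short motifs. It works mainly in germinal centres, where AID also drives the change of constant region from IgM and IgD to IgG, IgA or IgE. Some B cells leave with mutations and without a switch, and these IgM memory cells can enter later responses. Naive follicular B cells make IgM and IgD from 1 primary transcript by alternative splicing.

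The study set lymph nodes of 5xFAD mice against those of wild-type (WT) mice. The 5xFAD line is a transgenic model of Alzheimer's disease, and its transgenes are driven by the neuronal Thy1 promoter. All animals were females 10 to 11 months old, and the groups were 5xFAD and WT deep cervical nodes (dCLN), 5xFAD and WT superficial cervical nodes (sCLN), and 5xFAD and WT inguinal nodes (iLN). Each group was 1 library of immune cells pooled with hashtag antibodies, the number of animals in it is not given in the sources used here, and a seventh library mixed all 3 nodes and both genotypes. Tests over libraries therefore measure the spread between these libraries and not between animals.

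The 6 libraries held 2107 to 3904 barcodes with 1 productive heavy chain, and 99906 to 312484 UMIs over all contigs. A unique molecular identifier (UMI) marks 1 captured transcript. Of the 19634 barcode sequences in all 7 libraries, 233 occurred in more than 1 library, none of them with the same heavy chain junction, and none belonged to a mutated unswitched cell. By the rule all 89 had an unswitched constant region, and 85 of them had an IgM call and 4 an IgD call. The V mutation that chose the cells averaged 2.10% (SD 1.32, range 1 to 6.46%, median 1.38%). The maximum of 6.46% was from a WT sCLN cell with 1 V mismatch and an insertion of 18 bases. The next highest value was 5.44%. Of the 89 cells, 28 had 3 V mismatches, 17 had 4, 8 had 5 and 3 had 16.

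The clones that joined these cells to switched cells show what such receptors look like. The junctions below are from the clone with most cells, found in the 5xFAD dCLN library, with IGHV1-82, IGHJ4 and the light chain gene IGKV4-57. In GRCm38 coordinates of GENCODE M21, IGHV1-82 lies on chromosome 12 at chr12:115952538-115953005 on the minus strand, and the IgM constant gene at chr12:113418558-113422730. All junctions run from the conserved cysteine to the conserved tryptophan, and capitals mark bases that differ from the IgM cell.
IgM, mutated: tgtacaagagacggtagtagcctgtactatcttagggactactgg
IgG1 cell a: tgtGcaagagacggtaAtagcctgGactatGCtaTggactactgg
IgG1 cell b: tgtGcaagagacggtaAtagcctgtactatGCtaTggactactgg
IgG1 cell c: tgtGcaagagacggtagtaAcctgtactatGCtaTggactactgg
IgG1 cell d: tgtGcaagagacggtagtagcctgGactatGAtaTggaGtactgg
IgG1 cell e: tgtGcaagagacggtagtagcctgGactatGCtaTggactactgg
IgG1 cell f: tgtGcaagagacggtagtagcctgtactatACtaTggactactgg
IgG1 cell g: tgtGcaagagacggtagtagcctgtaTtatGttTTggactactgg

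Each of the 7 IgG1 junctions differed from the IgM junction at 4 to 6 of 45 bases, and the 8 cells had 8 different junctions. The V segments of the IgM cell, its germline gene and 1 IgG1 sister follow, up to the conserved cysteine, with capitals marking bases that differ from the germline. They are shown because the mismatches of these cells can be read from them directly.
Germline IGHV1-82: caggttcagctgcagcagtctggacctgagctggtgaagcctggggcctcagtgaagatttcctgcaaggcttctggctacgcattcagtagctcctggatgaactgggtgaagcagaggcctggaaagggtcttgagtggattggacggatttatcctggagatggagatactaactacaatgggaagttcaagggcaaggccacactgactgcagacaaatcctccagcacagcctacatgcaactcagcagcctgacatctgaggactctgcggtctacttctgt
IgM, mutated: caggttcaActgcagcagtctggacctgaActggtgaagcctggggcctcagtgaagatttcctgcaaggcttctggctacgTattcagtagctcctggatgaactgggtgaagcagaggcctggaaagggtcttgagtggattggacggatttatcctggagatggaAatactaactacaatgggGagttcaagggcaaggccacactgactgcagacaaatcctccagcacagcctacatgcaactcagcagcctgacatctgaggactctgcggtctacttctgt
IgG1 sister: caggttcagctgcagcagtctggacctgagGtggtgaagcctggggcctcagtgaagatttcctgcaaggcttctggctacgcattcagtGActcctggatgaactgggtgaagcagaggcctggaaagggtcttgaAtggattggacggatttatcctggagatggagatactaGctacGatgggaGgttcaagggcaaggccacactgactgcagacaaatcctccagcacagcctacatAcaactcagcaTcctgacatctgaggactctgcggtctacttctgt

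The IgM cell differed from the germline at 5 of these 288 bases and the printed IgG1 cell at 9. They had 0 V mismatches in common. Over the whole V segment the IgM cell had 6 mismatches, and none of the 7 IgG1 cells shared more than 1 of them. Sister here means a cell joined by the clone rule given below, and common descent was not tested.

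The share of mutated cells among unswitched cells was below 1% in each of the 6 libraries. In the dCLN it was 0.513% in 5xFAD (19 of 3707 cells, 95% exact binomial interval 0.309 to 0.799%) and 0.692% in WT (22 of 3178, 0.434 to 1.05%). In the sCLN it was 0.571% in 5xFAD (13 of 2275, 0.305 to 0.975%) and 0.675% in WT (22 of 3260, 0.423 to 1.02%). In the iLN it was 0.291% in 5xFAD (6 of 2059, 0.107 to 0.633%) and 0.328% in WT (7 of 2136, 0.132 to 0.674%). These intervals cover counting error only. The 4 cervical libraries were each above the 2 inguinal libraries, while the intervals of all 6 overlapped. With a V identity limit of 0.98 this order did not hold, since the WT iLN had 0.187% and the 5xFAD sCLN 0.176%.

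The share was lower in 5xFAD than in WT at each of the 3 nodes, by differences within counting error. In the iLN the order turned under 5 alternatives, such as at least 3 heavy chain UMIs, with 0.305% in 5xFAD and 0.294% in WT, or 1 cell per clone, with 0.302% in 5xFAD and 0.289% in WT. The 5xFAD minus WT difference was -0.18 percentage points (95% interval -0.588 to 0.206) for the dCLN, -0.103 (-0.54 to 0.372) for the sCLN and -0.0363 (-0.429 to 0.358) for the iLN. Its mean was -0.106 ± 0.0718 (SD, n = 3 nodes), with p = 0.25 in the two-sided exact sign-flip permutation test, the smallest value that 3 pairs allow. The share averaged 0.613% over the 4 cervical libraries and 0.31% over the 2 inguinal libraries. This difference of 0.303 percentage points gave p = 0.0667 in a two-sided exact permutation test, the smallest value that 4 against 2 libraries allow. At a limit of 0.98 the difference was 0.0968 percentage points (exact permutation p = 0.2). Each node and genotype had 1 library, so library and group cannot be told apart.

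**Figure D1:**
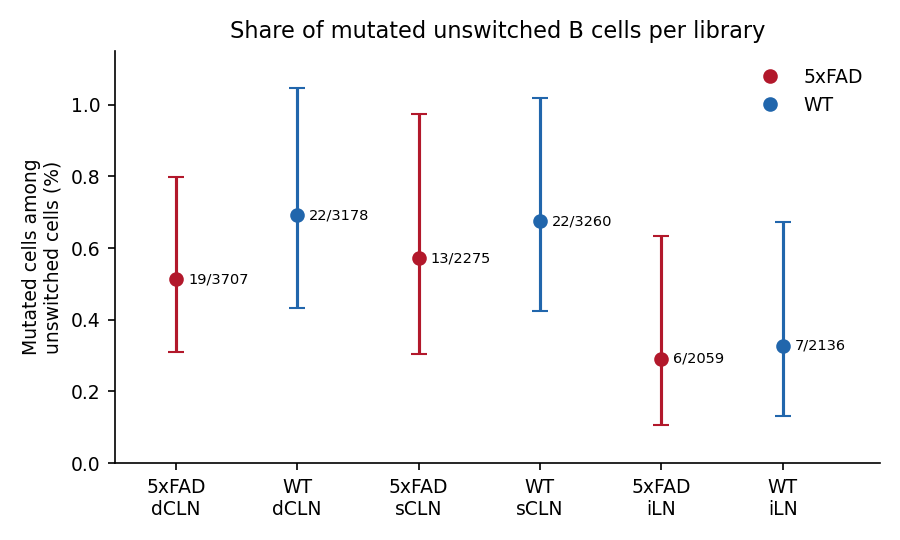
Percentage of unswitched cells with a V identity of 0.99 or less in each library, with 95% exact binomial intervals and the counts beside each point. The 4 cervical libraries sit between 0.513 and 0.692%, the 2 inguinal libraries at 0.291 and 0.328%, and at each node the 5xFAD point is below the WT point with overlapping intervals.

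The rule used the number of heavy chain V mismatches, and a set of 11 other measures was tested. Of these, 9 were compared between mutated and unmutated unswitched cells within each library. The other 2 set the places of the V mismatches of mutated cells against the bases of their own V segments, since unmutated cells have no mismatches. Each was tested over the 6 libraries by a two-sided exact sign-flip permutation test, whose smallest possible p is 0.0312. With Benjamini-Hochberg adjustment over the 11 measures, the smallest adjusted p was 0.0573, so none passed a threshold of 0.05. Directions are therefore given as the number of libraries that show them.

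The light chains of the mutated cells carried more mutations in all 6 libraries. Light chain V mutation, over cells with 1 productive light chain, averaged 1.22% in mutated and 0.19% in unmutated cells of the 5xFAD dCLN, and 1.26% and 0.182% in mutated and unmutated cells of the WT dCLN. In the sCLN it was 0.991% in mutated and 0.13% in unmutated cells of 5xFAD, and 1.12% in mutated and 0.161% in unmutated cells of WT. In the iLN it was 1.19% in mutated and 0.153% in unmutated cells of 5xFAD, and 1.03% in mutated and 0.166% in unmutated cells of WT. The ranges of these library means did not overlap between the 2 classes, and 5xFAD and WT libraries of mutated cells were intermingled. The mean difference was 0.972 ± 0.0932 percentage points (SD, n = 6 libraries), with an exact permutation p of 0.0312 and an adjusted p of 0.0573.

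A light chain V identity of 0.99 or less was found in 33 of 79 mutated cells (41.8%, 95% exact interval 30.8 to 53.4%) and in 537 of 14467 unmutated cells (3.71%, 3.41 to 4.03%). Per library the share was 28.6 to 66.7% of mutated cells and 2.75 to 4.35% of unmutated cells, with a mean difference of 41.3 ± 14.3 percentage points (SD, n = 6, higher in 6 of 6 libraries, exact permutation p = 0.0312, adjusted p = 0.0573). Most light chains at 0.99 or less in unmutated cells used genes whose mismatches recurred at fixed positions in over 50% of unswitched cells. Examples are IGKV3-9 with 26 such positions and IGKV3-3 with 24. With such positions masked, 33 of 79 mutated cells (41.8%) and 60 of 14467 unmutated cells (0.415%, 0.317 to 0.534%) had a mutated light chain. At least 1 light chain mismatch was left in 68 of 79 mutated cells, which is 86.1%, and in 6.24% of unmutated cells. Before masking, 9.65% of unmutated cells had at least 1.

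With fixed positions masked in both chains, light chain mutation was higher in each successive bin of heavy chain V mismatches among unswitched cells. Its mean was 0.052% with 0 heavy chain mismatches, 0.186% with 1, 0.354% with 2 and 0.64% with 3. It was 0.844% with 4 to 5 mismatches, 1.17% with 6 to 9 and 1.94% with 10 or more, where 14 cells had 1 light chain. Without masking of the heavy chain, just inside the limit, 30 unswitched cells had 3 mismatches, 28 of them members, and 19 of 24 with 1 light chain (79.2%) had a light chain mismatch. Just outside it, 41 cells had 2 mismatches, and 13 of 36 (36.1%) had one. Over the 79 mutated cells, heavy and light chain V mutation had a Pearson r of 0.475 and a Spearman rho of 0.374, given as a description, since cells of 1 library and of 1 clone are not independent.

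**Figure D2:**
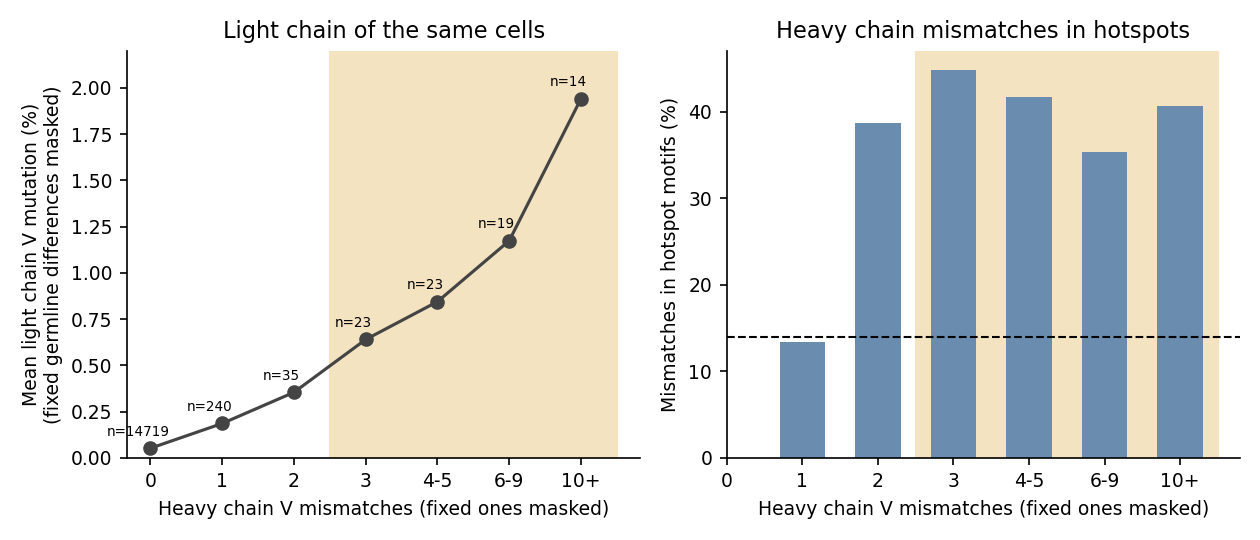
Left, mean light chain V mutation (%) of unswitched cells by the number of heavy chain V mismatches, fixed positions masked in both, with the number of cells with 1 light chain; right, percentage of heavy chain V mismatches in AID hotspot motifs, with the dashed line at the share of V bases in such motifs (13.9%). Shading marks 3 or more mismatches, where nearly every mutated cell lies; the mean climbs to 1.94% at 10 or more, and the hotspot share is 13.4% at 1 mismatch and 35.3 to 44.8% from 2 on.

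The heavy chain mismatches of the mutated cells were concentrated in AID hotspots. A hotspot was taken as the C of AAC, AGC, TAC or TGC, or the G of GTT, GCT, GTA or GCA on the germline strand. Of 532 V mismatches, 214 were in hotspots (40.2%), which made up 13.9% of the V bases of these cells. The excess over the share of bases was 31.2 percentage points in 5xFAD and 26.9 in WT dCLN, 23.6 in 5xFAD and 29.4 in WT sCLN, and 22.3 in 5xFAD and 11.7 in WT iLN. It averaged 24.2 ± 6.97 (SD, n = 6, above 0 in 6 of 6 libraries, exact permutation p = 0.0312, adjusted p = 0.0573). Of the 562 cells between the limits, 272 used IGHV1-69 or IGHV2-6-1, the heavy chain genes with a position that differed from the germline in over 50% of unswitched cells. With these positions masked, a choice made after the values were seen, 65 of 337 mismatches in cells between the limits were in hotspots (19.3%), against 14.4% of their bases, and 214 of 529 (40.5%) in mutated cells. Without masking it was 65 of 606 (10.7%) in cells between the limits.

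Switched cells at or under the same identity limit had 40.3% of their 4218 mismatches in hotspots. With the same masking, transitions made up 62.6% of the mismatches of mutated unswitched cells, 62.0% of those of mutated switched cells and 56.4% in unswitched cells between the limits. Mismatches at C or G made up 60.7% in mutated unswitched cells, 58.7% in mutated switched cells and 31.8% in unswitched cells between the limits, while C and G were 49.99% of the bases in mutated unswitched cells. The difference between the mutated unswitched and the mutated switched cells was not tested.

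Mismatches were denser in the complementarity-determining regions (CDR), the loops that contact antigen, than in the framework regions (FWR). The share of bases mutated was 2.54% in CDR1 and 3.8% in CDR2, and 1.24% in FWR1, 1.61% in FWR2 and 2.26% in FWR3. CDR1 and CDR2 held 137 of the 532 mismatches (25.8%) and 16.5% of the bases, and mutated switched cells had 27.1% of their mismatches there. The excess averaged 7.70 ± 4.78 percentage points over the libraries (SD, n = 6, above 0 in 6 of 6, exact permutation p = 0.0312, adjusted p = 0.0573), and was smallest in the 5xFAD iLN at 2.81 and in the WT iLN at 1.85. By IMGT codon, the most mismatches were at codon 64 with 27, at codon 36 with 21 and at codon 66 with 17.

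Mismatches that change the amino acid were common in CDR1 and CDR2 and less common in the rest of the V segment. In CDR1 and CDR2, 109 of 137 mismatches (79.6%) changed the amino acid, and 79.4% of all possible base changes in the same codons would. The rest was the frameworks and the V part of CDR3, which held 10 mismatches. There, 253 of 395 (64.1%) did, where 77.5% of possible changes would. With fixed positions masked, the share outside CDR1 and CDR2 was 63.8% in mutated unswitched cells, 64.3% in mutated switched cells and 59.9% in unswitched cells between the limits. The share of possible changes takes no account of hotspots.

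**Figure D3:**
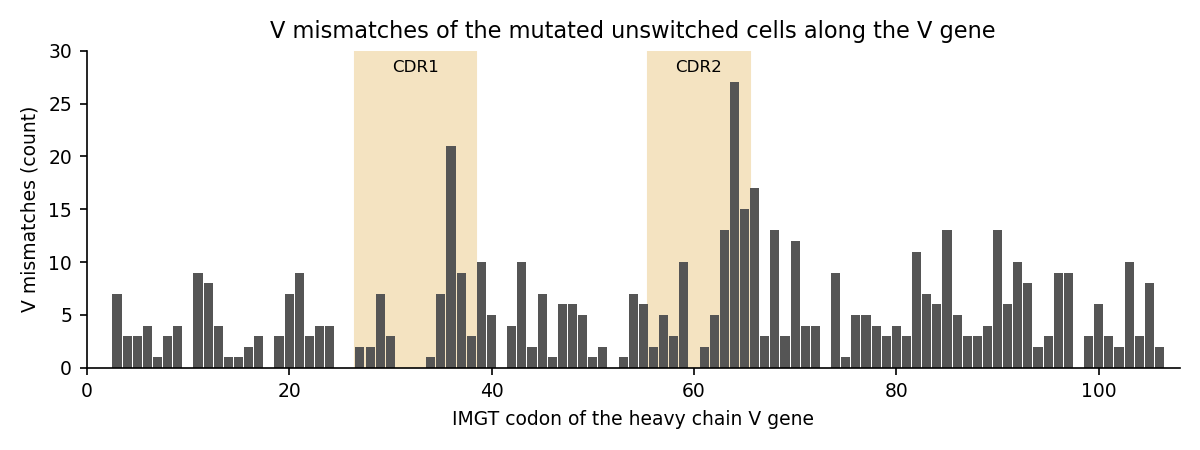
Number of heavy chain V mismatches of the 89 mutated unswitched cells at each IMGT codon, with CDR1 and CDR2 shaded. The highest bars are codon 64 with 27 mismatches in CDR2, codon 36 with 21 in CDR1 and codon 66 with 17 at the start of FWR3.

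The J segment of the heavy chain, which the rule did not use, also carried mismatches. At least 1 was found in 22 of 89 mutated cells (24.7%) and in 3.76% of unmutated cells. Mean J mutation was 0.92% in mutated and 0.0809% in unmutated cells of the 5xFAD dCLN, and it was higher in the mutated cells of 5 of 6 libraries. In the 5xFAD iLN the 6 mutated cells had 0%, against 0.103% in unmutated cells. The mean difference was 0.53 ± 0.382 percentage points (SD, n = 6, exact permutation p = 0.0625, adjusted p = 0.0859).

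The mutated cells had more heavy chain UMIs than unmutated cells by the median in all 6 libraries. The median was 24 in mutated and 13 in unmutated cells of the 5xFAD dCLN, and 12.5 in mutated and 9 in unmutated cells of the WT dCLN. In the sCLN it was 17 in mutated and 12 in unmutated cells of 5xFAD, and 19.5 in mutated and 11 in unmutated cells of WT. In the iLN it was 15.5 in mutated and 11 in unmutated cells of 5xFAD, and 14 in mutated and 12 in unmutated cells of WT. On the mean log2 scale, which the test used, the difference was 0.79 ± 0.48 (SD, n = 6) and positive in 5 of 6 libraries, with an exact permutation p of 0.0625 and an adjusted p of 0.0859. The exception was the WT iLN, with 3.32 in mutated and 3.40 in unmutated cells. The median of mutated switched cells was 9 over the 6 libraries, against 17 in mutated unswitched cells.

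A few mutated cells had very high UMI counts. At least 100 heavy chain UMIs were found in 8 of 89 mutated cells (8.99%, 95% exact interval 3.96 to 16.9%) and in 16 of 15964 unmutated cells (interval 0.0573 to 0.163%). The 2 highest were a 5xFAD sCLN cell with IGHV6-3, 686 UMIs and 16 V mismatches, and a 5xFAD dCLN cell with IGHV1-42, 594 UMIs and 4 V mismatches. All 8 had an IgM call, and 6 of them were from the 5xFAD libraries, 3 in the dCLN and 3 in the sCLN. The 16 unmutated cells leaned the other way, with 1 from the 5xFAD dCLN, 5 from the WT dCLN, 7 from the WT sCLN and 3 from the WT iLN. At the other end, 3 of the 89 cells had 1 or 2 heavy chain UMIs.

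**Figure D4:**
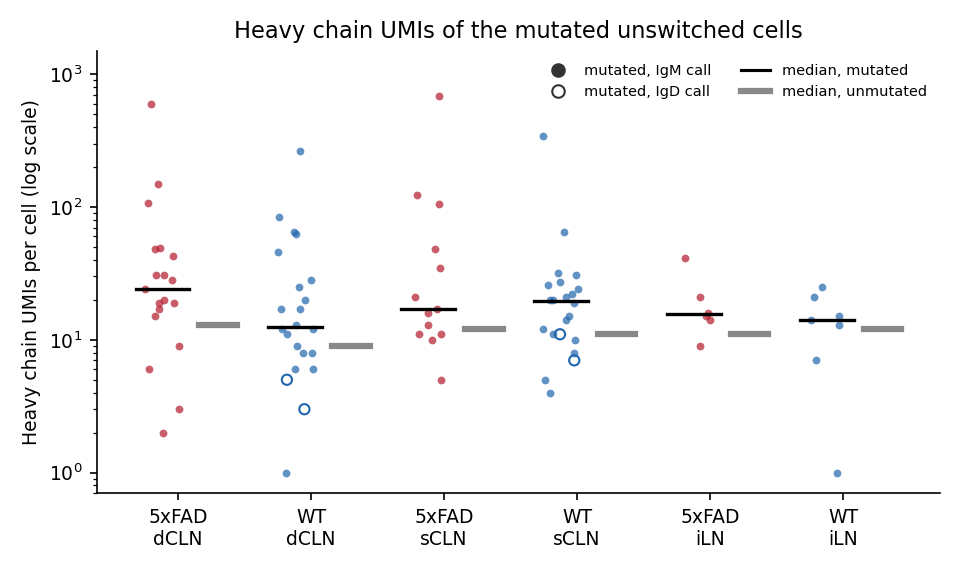
Heavy chain UMIs of each mutated unswitched cell on a log scale, by library, with filled points for IgM calls and open points for IgD calls. Black lines are the medians of mutated cells (12.5 to 24) and grey lines those of unmutated cells (9 to 13). Each black line is above its grey line. The 4 open points are in WT cervical libraries, and the 2 in the WT sCLN have 1 junction.

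IgD calls were rarer among mutated cells. They made up 4 of 89 mutated cells (4.49%, 95% exact interval 1.24 to 11.1%) and 3493 of 15964 unmutated cells (21.9%, 21.2 to 22.5%). All 4 came from the WT dCLN and WT sCLN, with 2 in each, and none was found in the other 4 libraries. The 2 of the WT sCLN were a pair of IGHV4-1 barcodes with 1 junction and the same 4 V mismatches. Whether they are 2 cells or 1 cell with 2 barcodes cannot be told apart. Unmutated cells had 16.7 to 28.1% per library. The mean difference was -18.8 ± 2.64 percentage points (SD, n = 6, lower in 6 of 6 libraries, exact permutation p = 0.0312, adjusted p = 0.0573). The constant region call moved with UMIs, so unmutated cells were also weighted to the UMI bins of the mutated cells of their library, a choice made after the values were seen. The weighted share of unmutated cells averaged 13.8% over libraries, against 3.03% in mutated cells, a difference of -10.8 ± 4.01 percentage points (SD, n = 6, lower in 6 of 6, exact permutation p = 0.0312, adjusted p = 0.0573).

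Junctions were slightly shorter in mutated cells of all 6 libraries. They averaged 38 to 42.2 bases in mutated and 42.1 to 42.6 bases in unmutated cells, a difference of -2.14 ± 1.59 bases (SD, n = 6, exact permutation p = 0.0312, adjusted p = 0.0573). In the 5xFAD sCLN the difference was -0.0729 bases. Terminal transferase inserts N bases at the joins. They were counted here as bases between the V, D and J segments, and whether mutated segment ends were among them was not tested. This count averaged 7.60 in mutated and 7.14 in unmutated cells over libraries, a difference of 0.453 ± 0.682 (SD, n = 6, exact permutation p = 0.125, adjusted p = 0.153).

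The mutated cells used 40 heavy chain V genes, 23 of them in 1 cell, and unmutated cells used 95. The large IGHV1 family made up 58.4% of mutated and 57.8% of unmutated cells. The IGHV6 family stood higher, with 11 of 89 mutated cells (12.4%, 95% exact interval 6.33 to 21.0%) and 346 of 15964 unmutated cells (2.17%, 1.95 to 2.41%). It was seen in mutated cells of every library, with 3 cells in 5xFAD and 3 in WT dCLN, 2 in 5xFAD and 1 in WT sCLN, and 1 each in 5xFAD and WT iLN. Among mutated switched cells it made up 2.58%, and among unswitched cells between the limits 3.20%. No test was run on gene use, because the V identity that chose the cells depends on the V gene and its germline reference. Counts per gene are few, and these genes were singled out after their values were seen.

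Within that family, 9 of the 11 cells used IGHV6-3 and 2 used IGHV6-6. All 11 had an IgM call, and 2 of the IGHV6-3 cells of the WT dCLN formed 1 clone with IGHJ3 and IGKV2-137. The other IGHV6-3 cells differed in D, J or light chain gene. IGHV6-3 made up 10.1% of mutated and 1.33% of unmutated cells.

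Other V genes with most mutated cells were less even across libraries. IGHV1-26 was used by 9 mutated cells (10.1%) and by 6.30% of unmutated cells, and 6 of the 9 were from the WT dCLN. IGHV1-53 was used by 7 (7.87%) and by 2.08% of unmutated cells, and IGHV2-2 by 6 (6.74%) and by 2.88%. IGHV4-1 was used by 5 (5.62%) and by 0.677% of unmutated cells, but 4 of the 5 were 2 pairs of barcodes with identical junctions, 1 pair in the WT sCLN and 1 in the WT iLN. Whether such a pair is 2 sister cells or 1 cell with 2 barcodes cannot be told apart. IGHV1-66 was used by 4 (4.49%) and by 0.532% of unmutated cells, and 3 of the 4 were from the 5xFAD sCLN.

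Some families had few mutated cells, with intervals that still held the unmutated share. IGHV14 had 1 mutated cell (1.12%, 95% exact interval 0.0284 to 6.10%) and 5.24% of unmutated cells. For IGHV9 it was 1 (1.12%, 0.0284 to 6.10%) and 5.64%, and for IGHV8 2 (2.25%, 0.273 to 7.88%) and 5.41%. The B-1 cell receptor genes IGHV11-1, IGHV11-2 and IGHV12-3, which in mice are known from phosphatidylcholine-binding innate-like B cells, had 0 of 89 mutated cells and 0, 14 and 7 unmutated cells. With 89 cells an upper 95% bound of 4.06% holds for each, so a difference from the unmutated cells was not detectable at this number of cells. IGHV1-72, known from responses to nitrophenyl haptens in mice, had 1 mutated cell and 2.75% of unmutated cells.

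The D and J segments were used much as in unmutated cells. IGHJ1 made up 19.1% of mutated and 18.8% of unmutated cells, IGHJ2 38.2% and 33.4%, IGHJ3 19.1% and 22.9%, and IGHJ4 23.6% and 24.9%. The IGHD1 family made up 34.8% of mutated and 38.4% of unmutated cells, IGHD2 30.3% and 34.4%, IGHD3 10.1% and 6.61%, and IGHD4 11.2% and 9.77%. Every interval of the mutated cells for these genes held the unmutated value.

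Light chains were mostly kappa in both classes. Lambda chains were found in 5 of 79 mutated cells (6.33%) and in 4.60% of unmutated cells, with a mean difference over libraries of 0.281 ± 6.00 percentage points (SD, n = 6, higher in 3 of 6, exact permutation p = 0.812, adjusted p = 0.894). Of these 5, 3 used IGLJ3, which 19 of 14467 unmutated cells used, and 2 of the 3 were the IGHV4-1 barcodes of the WT sCLN. IGKV8-30 was used by 5 mutated cells (6.33%) and by 1.38% of unmutated cells, IGKV2-137 by 5 (6.33%) and by 1.51%, and IGKV1-110 by 5 (6.33%) and by 2.83%. IGKV1-117 was used by 5 (6.33%) and by 3.55%, IGKV10-96 by 5 (6.33%) and by 5.48%, and IGKV3-5 by 4 (5.06%) and by 1.77%. All 4 IGKV3-5 cells belonged to 2 clones described below, so these counts are not independent. The IGKV6 family made up 8.86% of mutated and 16.5% of unmutated cells.

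Clonal relatives were searched within each library as cells with the same heavy V and J genes, junction length, light V and J genes and light junction length, and heavy junctions within 0.15 of their length. A relative means a cell joined by this rule, and whether such cells descend from 1 rearrangement was not tested. Of the mutated cells, 16 fell in 11 clones of 2 or more cells. Links of mutated cells to switched cells were found in 5 clones, all in the 5xFAD dCLN. There, 5 of 18 mutated cells with a light chain (27.8%, 95% exact interval 9.69 to 53.5%) had a switched relative, and 1 of 3522 unmutated cells (0.0284%) did. Among unswitched cells between the limits, 3 of 556 with a light chain had a switched relative. These were 2 of 108 cells in the WT dCLN and 1 of 79 in the 5xFAD sCLN, with 0 of 132 in the 5xFAD dCLN.

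In the 5 libraries other than the 5xFAD dCLN, 0 of 67 mutated cells had a switched relative. Pooled as if the 5 libraries were alike, this allows a share of up to 4.48%. Within single libraries the exact intervals were wider. They reached 16.8% in the WT dCLN (0 of 20 cells), 26.5% in the 5xFAD sCLN (0 of 12) and 15.4% in the WT sCLN (0 of 22). In the iLN they reached 45.9% in 5xFAD (0 of 6) and 41.0% in WT (0 of 7). Each of these intervals overlapped that of the 5xFAD dCLN, 9.69 to 53.5%. Switched cells numbered 159 in the 5xFAD dCLN, 136 in the WT dCLN, 68 in the 5xFAD sCLN and 144 in the WT sCLN. The 5xFAD iLN had 25 and the WT iLN 31. Whether these numbers bear on the links was not tested. By heavy chain alone, linked unmutated cells were 2 of 3556 in the 5xFAD dCLN, 4 of 3046 in the WT dCLN and 0 of 2183 in the 5xFAD sCLN. They were 3 of 3126 in the WT sCLN, 1 of 1999 in the 5xFAD iLN and 1 of 2054 in the WT iLN. Of the mutated cells, 6 of 19 in the 5xFAD dCLN and 0 in the other libraries were linked by heavy chain alone. With links in 1 of 6 libraries, the exact permutation p was 1 (adjusted p = 1) for a mean difference of 4.62 ± 11.3 percentage points (SD, n = 6), and without the 5xFAD dCLN library the difference was 0. Whether the links belong to the node and genotype or to 1 animal cannot be told apart.

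The 5 clones differed in how the IgM cell stood to its switched relatives. The IGHV1-82 clone printed above had 7 IgG1 cells, with V mutation of 1.02 to 3.06%, and its IgM cell had 148 heavy chain UMIs, 2.04% heavy V mutation and 1.75% light V mutation. The IGHV3-3, IGHJ1 and IGKV4-86 clone had 6 cells: 1 mutated and 1 unmutated IgM cell, 3 IgG1 cells and 1 IgG3 cell. The mutated IgM cell and its 4 switched relatives had 1 junction, printed below with that of the unmutated IgM cell, which differed at 2 bases.
IGHV3-3 IgM, mutated: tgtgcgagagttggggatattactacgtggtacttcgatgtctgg
IGHV3-3 IgM, unmutated: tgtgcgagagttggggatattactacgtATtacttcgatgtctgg

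That mutated IgM cell had 3 V mismatches, and its switched relatives had V mutation of 0 to 1.02% and shared 0 of the 3. In the clone of IGHV1-53, IGHJ2 and IGKV6-13, the IgM cell and 4 IgG2b cells had 1 identical junction of 30 bases. The IgM cell had 3 V mismatches and the IgG2b cells 7 to 10, with 0 shared. In the clone of IGHV8-8, IGHJ3 and IGKV3-5, the IgM cell had 3 mismatches, an IgG1 cell 6 and an IgG3 cell 2, again with 0 shared.

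The IGHV1-15, IGHJ1 and IGKV4-57 pair was the exception. Its IgM cell had 10 V mismatches and 108 heavy chain UMIs, its IgG1 cell had 9 mismatches and 12 UMIs, and all 9 were shared. Both had the junction below, and the 5 clones are compared in the plot of V mutation by clone.
IGHV1-15 IgM and IgG1: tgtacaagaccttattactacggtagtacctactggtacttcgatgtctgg

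**Figure D5:**
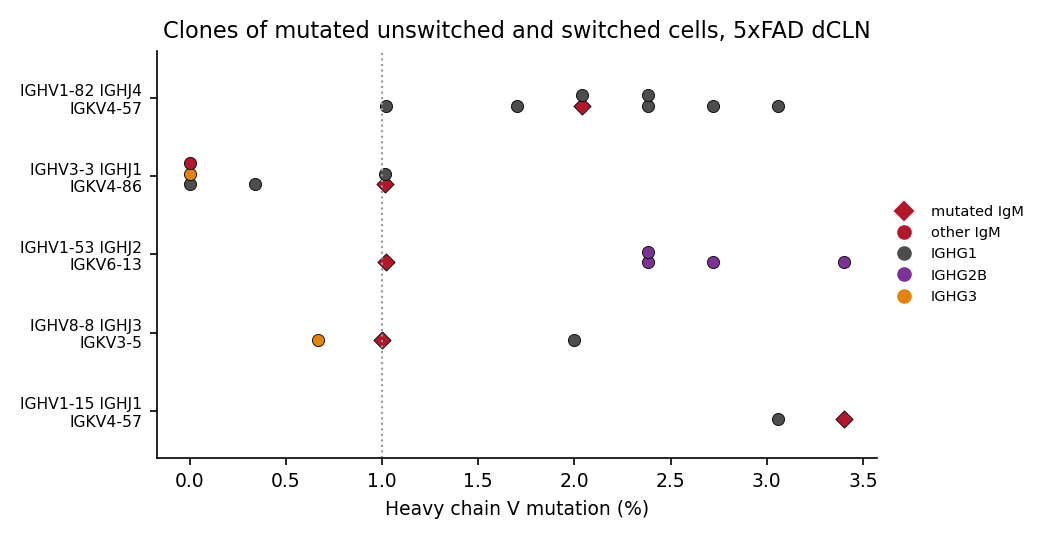
Heavy chain V mutation (%) of each cell in the 5 clones that hold a mutated unswitched and a switched cell, all from the 5xFAD dCLN library; diamonds are the mutated IgM cells, circles their relatives by constant region, and the dotted line is at 1%. The IgM cells lie at 1 to 3.4%, below the IgG2b cells of their clone at IGHV1-53 and among the IgG1 cells at IGHV1-82.

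The other 6 clones held unswitched cells alone. The 2 IGHV1-26, IGHJ2 and IGKV1-117 cells of the WT dCLN had 12 and 10 V mismatches, 9 of them shared, with 264 and 13 UMIs. In a WT dCLN clone with IGHV1-26, IGHJ4 and IGKV2-137, 1 mutated IgD cell with 3 mismatches shared its junction with 2 unmutated IgM cells and an IgM cell with 1 mismatch. The same junction with the same genes was also found in 9 unmutated IgM cells of the WT sCLN and 2 of the WT iLN, 15 cells in all, and none outside its library shared its mismatches. The remaining 4 were pairs of mutated cells.

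Searched over libraries by the same rule, 4 clones with a mutated cell reached another library. The IGHV1-15, IGHJ1 and IGKV4-57 clone had a junction 6 bases from that of the other library, with 0 mismatches shared. For an IGHV6-3, IGHJ2 and IGKV2-137 cell of the WT iLN it was 5 bases, with 0 shared. The IGHV1-26 and IGHJ4 clone above also shared 0. Mismatches shared over libraries were found in 1 clone. It used IGHV1-53, IGHJ2 and IGKV3-5 and held 1 mutated IgM cell in the WT dCLN and 2 in the WT sCLN, with 4, 11 and 7 V mismatches. The WT dCLN cell shared 3 mismatches with the WT sCLN cells. The junctions differed at 2 of 39 bases, in capitals below.
WT dCLN cell: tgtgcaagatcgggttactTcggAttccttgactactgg
WT sCLN cells: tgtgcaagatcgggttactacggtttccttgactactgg

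Against mutated switched cells, the mutated unswitched cells had fewer heavy chain mismatches in every library. Mean V mutation was 1.95% in unswitched and 3.32% in switched cells of the 5xFAD dCLN, and 2.35% in unswitched and 3.98% in switched cells of the WT dCLN. In the sCLN it was 1.98% in unswitched and 3.59% in switched cells of 5xFAD, and 2.05% in unswitched and 4.04% in switched cells of WT. In the iLN it was 2.03% in unswitched and 3.31% in switched cells of 5xFAD, and 2.13% in unswitched and 3.31% in switched cells of WT. The same limit chose both classes, so no test was run. The library means of light chain V mutation were 0.991 to 1.26% in unswitched and 2.25 to 2.78% in switched cells, and these ranges of means did not overlap. Single cells did overlap, from 0 to 4.88% in mutated unswitched and from 0 to 10.9% in mutated switched cells.

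Some V segments had another match among the germline genes in the tables. The V bases of 3 of the 89 cells matched a mosaic of 2 germline V genes with at least 3 fewer mismatches than any 1 gene: an IGHV1-26 cell of the WT dCLN with 11 mismatches to 1 gene and 4 to 2, an IGHV1-53 cell of the WT iLN with 4 and 0, and an IGHV1-19 cell of the WT sCLN with 6 and 0. Another WT sCLN cell had 1 mismatch and an insertion of 18 bases in IGHV1-5. IGHV1-69 had 1 position that differed from the germline in over 50% of 343 unswitched cells, and 3 mutated cells used it. Without the 3 mosaic cells, a choice made after the values were seen, 7 of the 11 measures had the smallest exact permutation p in all 6 libraries and an adjusted p of 0.0491.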

How the data were processed

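Single-cell B cell receptor libraries were made from lymph node immune cells with a 5' droplet kit and hashtag antibodies, per the labels' protocols. The tools Cell Ranger 6.0.1 and Seurat 4.1.0 and the build mm10 appear, with no step attached to them, in the submitters' processing notes. The authors' tables give 1 productive contig per line with V, D, J and constant region calls, per the file headers; the germline set is not given in the sources used here. UMIs per contig are counts, and V and J identities are fractions from 0 to 1, both as the authors deposited them. Lengths of junctions and added N bases are counted in bases.

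Cells with 1 productive heavy chain were classed by constant region and V identity. No doublet caller was run; 765 of 18146 barcodes with a heavy chain (4.22%) had more than 1 and were left out as possible doublets, while barcodes with 2 light chains, 6 among the members, were kept. V mismatches were counted between the deposited sequence and germline alignments, and light chains were read from cells with exactly 1. Clones joined equal V and J genes, light chain genes and junction lengths at a junction distance of at most 0.15. Positions that differed in over 50% of at least 5 unswitched cells of a V gene were masked where stated. Mutation is 100 minus the percent identity. The counter, clone linkage and tests were checked on simulated data. Python 3.11.15, pandas 2.3.3, NumPy 2.4.6 and SciPy 1.17.1 were used. Gene positions are from GENCODE M21, build GRCm38; all 88 genes looked up were found by symbol.

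Genes named are all IGHV families with members that stand out, all IGHJ genes, the main IGHD families, the 6 heavy and 6 light chain V genes with most members, IGHV genes with at least 5 members at 2 or more times the share of unmutated cells, a short list of B-1 and response genes, and clones with a switched cell. The members and lists were chosen with earlier results of these data known. Alternatives covered the identity limit, UMI minimum, light chain and clone rules, duplicates, germline masking and each library left out.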

Additional observations from a re-analysis of the deposited data

Results flagged for a closer look

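The mixed library, with cells of every node and of WT and 5xFAD mice, was left out of all comparisons, and it held mutated unswitched cells well above the limit that a count of 0 allows. Its share was 1.63% (37 of 2270 unswitched cells, 95% exact interval 1.15 to 2.24%), against a limit of 0.132%, and this is above the shares of the other 6 libraries, which were 0.291 to 0.692%. Of the 37 cells, 4 were IgD cells with IGHV1-87, each with a V difference of 14.2% and with 4 different junctions, and this gene was seen in no other library. Without them the share was 1.45% (33 cells, 1.00 to 2.04%). Switched cells made up 6.93% of the cells with a constant region call here and at most 4.23% elsewhere. The part of node, genotype or animals in this difference was not tested.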

How the results depend on the processing

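The limit on V identity moved the share most. With 0.98 it was 0.189% in 5xFAD and 0.346% in WT dCLN, 0.176% in 5xFAD and 0.245% in WT sCLN, and 0.0971% in 5xFAD and 0.187% in WT iLN, and the cervical minus inguinal difference was 0.0968. With any identity below 1 it was 4.07% in 5xFAD and 4.15% in WT dCLN, 4.04% in 5xFAD and 4.11% in WT sCLN, and 2.91% in 5xFAD and 3.84% in WT iLN. With any identity below 1 the difference in N bases turned to -0.797, in lambda chains to -0.587 and in CDR mismatches to -2.89. The lambda difference was -0.276 with 1 cell per clone and -0.422 with identical receptors counted as 1 cell, and ran from -1.52 to 1.33 as each library was left out. The linked share ran from 0 without the 5xFAD dCLN to 5.55. Over all alternatives the light chain mutation difference ran from 0.152 to 1.46, the mutated light chain share from 6.00 to 75.9, J mutation from 0.0724 to 0.929, log2 UMIs from 0.04 to 1.16 and IgD from -21.9 to -6.63, with the ends nearest 0 at any identity below 1. The junction length difference was -1.40 with an adjusted p of 0.802 in the exact permutation test at a limit of 0.98. The genotype difference in the share kept its sign, from -0.357 to -0.063, and its iLN part turned positive with at least 3 UMIs, with 1 light chain, with 1 cell per clone, with identical receptors counted as 1 and without the mosaic cells. Without the mosaic cells, a choice made after seeing the data, adjusted p was 0.0491 for light chain mutation (1.03), mutated light chain share (43.6), log2 UMIs (0.83), IgD (-18.7), junction length (-1.83), hotspots (24.8) and CDRs (8.57). The causes were not tested. Of 272 alternative values, 246 kept their direction and side of the threshold, or stayed within the counting interval. For some of them the side of the 0.05 threshold was fixed in advance. With 5 libraries the smallest possible p of the sign-flip permutation test is 0.0625. The exact permutation tests of genotype and node cannot go below 0.25 and 0.0667. In these cases only the direction could change. Genotypes were paired by node and classes within library; the labels give no replicate numbers to block on. The members number 6 to 22 per library, so a genotype difference within the printed intervals was not detectable at this depth.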
